A study of Arabidopsis thaliana with 4 samples.

Results

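Aliphatic glucosinolates are sulfur-rich defence compounds that Arabidopsis makes from methionine. The side chain of methionine is first lengthened in rounds that begin in the cytosol and run in the chloroplast, a core of cytochrome P450, conjugation, glucosylation and sulfation steps then builds the glucosinolate, and late enzymes modify the side chain. When tissue is damaged, myrosinases cleave the glucosinolate, and specifier proteins such as ESP steer the products away from isothiocyanates. The 10 probe sets described here were listed for a regulator of this pathway (MYB28), for its synthesis and for a breakdown step (ESP). The 8 synthesis probe sets were listed as BCAT4, BAT5, MAM1, MAM3, CYP79F1/F2, CYP83A1, SOT17 and SOT18. All 10 are among 22746 probe sets that are not controls. They were listed by identifier, and BCAT4 by gene name, and were chosen by their log2 difference between an3-4 and wild type on these same arrays, which was already known. Their values are therefore given as a description, without a test. The platform annotation used here lists the gene of 1 member, BCAT4 (257021_at, AT3G19710). The gene names of the other 9 probe sets come from the list itself and were not checked against an annotation.

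The study compared leaf primordia of wild-type Arabidopsis with those of the mutant an3-4, both of ecotype Col-0, to find transcripts that differ between them. ANGUSTIFOLIA3 acts with transcription factors to keep the cells of young leaves dividing. Plants grew in continuous light at 22 °C, and the primordia of the first leaves were frozen 7 days after sowing. Total RNA was hybridised to 4 Affymetrix arrays, 2 of each genotype, and the labels do not say that the replicates came from separate cultures, so the spread between them may be technical. The mutant was represented by a single allele. The transcript of AN3 itself was not analysed here, so the genotype labels were not checked against the mutated gene.

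Each value is a MAS5 signal, an intensity in arbitrary units. The same-numbered arrays of both genotypes had trimmed means of 143 (arrays 1) and 169 (arrays 2), so all signals below were brought to a common trimmed mean, which leaves the fold change between the genotypes as it is. Over the 13647 probe sets left without the 40% of lowest signal, log2 signals correlated at 0.988 within wild type, at 0.989 within an3-4 and at 0.968 to 0.969 across the genotypes. The 40th percentile of each array, between 35.1 and 39.0, serves below as the mark of a dim signal. In limma, 604 probe sets were higher and 570 lower in an3-4 at an adjusted p under 0.05. As a measure of RNA integrity, the log2 ratio of the 3' to the 5' control probe set was taken for 6 pairs (actin, ubiquitin and GAPDH). The mutant arrays lay above the wild-type arrays without overlap in 3 of the pairs, and the differences of the means ran from -0.02 to 0.23. Of the markers listed for leaf tissue 4 of 8 were measured, for myrosin and guard cells 2 of 7, for roots 1 of 8 and for seeds 0 of 6, and none was called in limma. The lowest adjusted p among these markers was 0.106. The 4 leaf markers had a median log2 fold change of -0.22. Of these, 2 were lower on both mutant arrays without overlap, beside 20.8% of all probe sets, and 0 were higher, beside 25.0%. With so few markers nothing is read from this count. LHCB4.2, a light-harvesting gene, had signals of 3463 and 3004 in wild type and of 2724 and 2230.3 in an3-4, a log2 fold change of -0.39 ± 0.12. JAG, which promotes growth of lateral organs, had signals of 60.8 and 86.7 in wild type and of 46.2 and 51.8 in an3-4 (-0.57 ± 0.22), and neither gene was called (limma adjusted p = 0.106 and 0.226). The leaf polarity genes YAB3 and YAB5 overlapped between the genotypes, with -0.06 ± 0.09 and 0.11 ± 0.15. PYK10, a β-glucosidase known mainly from roots and seedlings, had signals from 3943 to 4474. FAMA, which specifies guard cells and myrosin cells, was near the dim mark on all arrays, from 33.9 to 45.2, and SPCH, which starts the stomatal lineage, overlapped between the genotypes with a log2 fold change of -0.31 ± 0.16. The part of RNA quality and of tissue makeup in the results below was not tested. In such bulk samples, fewer cells of a type and less RNA per cell cannot be told apart.

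The transcripts of this pathway differed in opposite directions in an3-4. The signals for the regulator MYB28 and for the breakdown gene ESP were higher on both mutant arrays, ESP by 28.5-fold and MYB28 by 1.51-fold. Of the 8 synthesis probe sets, 7 were lower on both mutant arrays, among them the dim MAM3, and SOT18 overlapped between the genotypes. Among all probe sets, 25.0% were higher without overlap and 20.8% lower. Over all 10 members the median log2 fold change of an3-4 over wild type was -0.76, or -0.68 over the 9 members without the dim MAM3, and over all probe sets tested it was 0.02. The limma fit across all probe sets called 8 of the 10 members, beside 5.16% of all probe sets. Of these, 2 were higher, beside 2.66%, and 6 were lower, beside 2.51%. Because the members were listed with this contrast known, nothing is read from these shares. All but MAM3, 9 of the 10 members, passed a filter that leaves out the 40% of probe sets with the lowest signal.

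**Figure D1:**
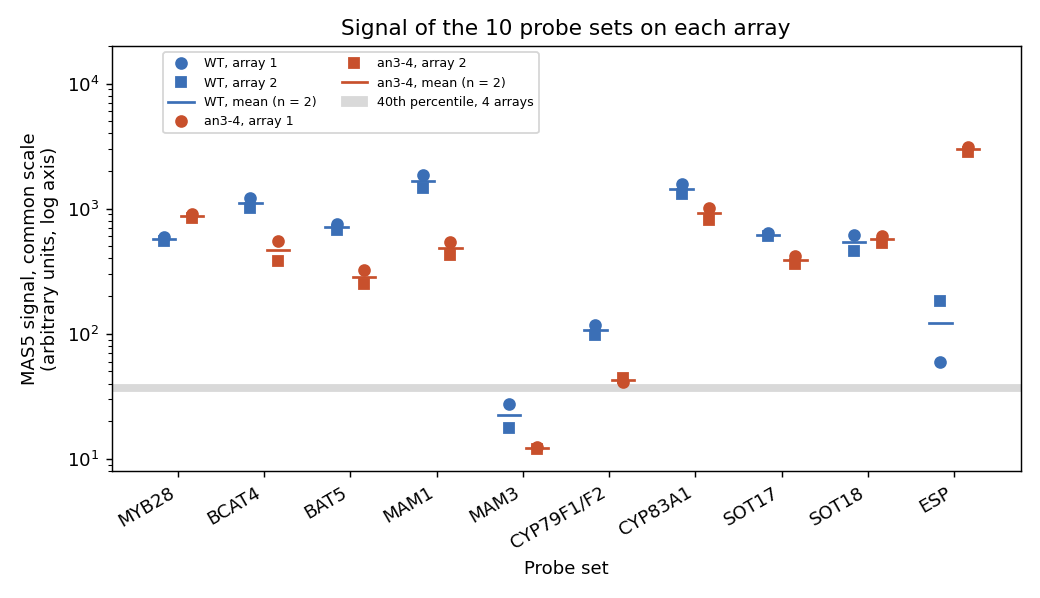
MAS5 signal (arbitrary units, common scale, log axis) of each of the 10 probe sets on the 4 arrays, with circles for arrays 1, squares for arrays 2 and short lines for the mean of 2 arrays. ESP lies at 59.1 and 185 in wild type and at 3103 and 2865 in an3-4, MAM3 lies below the grey band of 40th percentiles on every array, and only SOT18 has overlapping genotypes.

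MYB28 is an R2R3-MYB transcription factor that activates aliphatic glucosinolate genes. Its probe set 247549_at had signals of 596 and 555 on the wild-type arrays and of 904 and 837 on the an3-4 arrays. Both mutant arrays were higher than both wild-type arrays. The mean signal was 575 ± 29.1 for wild type and 870.5 ± 47.2 for the mutant (SD, n = 2), and the log2 fold change was 0.60 ± 0.08 (SE).

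Of the chain-elongation members, BCAT4, BAT5 and MAM1 were lower in the mutant, while MAM3 was too dim for a measured difference. BCAT4 (257021_at), the aminotransferase that removes the amino group of methionine at the entry to elongation, had signals of 1216 and 1009 in wild type and of 548 and 385 in an3-4. Its log2 fold change was -1.27 ± 0.15, a signal 2.41-fold higher in wild type. BAT5 (254862_at), the carrier that moves the 2-oxo acids across the chloroplast envelope, had signals of 760.4 and 674 in wild type and of 322 and 249 in an3-4. Neither gene overlapped between the genotypes, and the log2 fold change of BAT5 was -1.34 ± 0.12.

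MAM1 (249866_at), a methylthioalkylmalate synthase that condenses the 2-oxo acid with acetyl-CoA and so commits it to elongation, had the lowest log2 fold change of the 10 members. Its signals were 1848 and 1470.3 in wild type and 547 and 430.4 in an3-4, without overlap between the genotypes. The log2 fold change was -1.76 ± 0.13, a signal 3.40-fold higher in wild type. In the ranking of all 13647 probe sets left without the 40% of lowest signal, MAM1 was the 24th from the lowest log2 fold change.

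MAM3 (249867_at), the related synthase needed for the longest side chains, was dim throughout. Its signals of 27.5 and 17.7 in wild type and of 12.4 and 12.1 in an3-4 all lay below the 40th percentile of their arrays. The mutant arrays were the lower ones, but with both genotypes below that mark no fold change is given for MAM3. MAM1 and MAM3 are neighbours on chromosome 5 and similar in sequence, and how far each probe set reads the other transcript was not tested.

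In the core of the pathway the P450 step that takes chain-elongated methionine to the aldoxime differed most. Probe set 262717_s_at reads both CYP79F1 and CYP79F2, which adjoin on chromosome 1, so the transcripts cannot be separated. Its signals were 117 and 97.6 in wild type and 41.5 and 44.2 in an3-4, a log2 fold change of -1.32 ± 0.18. Both mutant signals were just above the 40th percentile. Its log2 fold change was -0.89 when 32 was added to all signals.

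CYP83A1 (254687_at), which oxidises the aldoximes in the next step, had signals of 1573 and 1305 in wild type and of 1015 and 819 in an3-4. Its log2 fold change was -0.65 ± 0.12. SOT17 (255773_at), a sulfotransferase that adds the final sulfate of the core structure, had signals of 638 and 604 in wild type and of 417 and 362 in an3-4, a log2 fold change of -0.68 ± 0.09. Neither gene overlapped between the genotypes.

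The probe set listed as SOT18, another desulfoglucosinolate sulfotransferase, did not share this pattern. Its signals of 616 and 459 in wild type and of 604 and 535 in an3-4 overlapped, with a log2 fold change of 0.10 ± 0.13. Its sign depended on 1 array, with -0.12 when wild-type replicate 2 was left out and 0.31 without wild-type replicate 1. SOT18 lies next to SOT16, which acts mainly on indolic glucosinolates, in the gene order of chromosome 1, and the tables used here do not settle which of these genes the probe set 260387_at reads.

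The synthesis members with a measured difference differed among themselves in its size. The ratios of either an3-4 array to either wild-type array, on the log2 scale, ran from -2.10 to -1.43 for MAM1, from -1.61 to -1.06 for BAT5, from -1.50 to -1.14 for CYP79F1/F2 and from -1.66 to -0.88 for BCAT4. These 4 ranges overlap their neighbours in the order. They ran from -0.82 to -0.53 for SOT17 and from -0.94 to -0.36 for CYP83A1, so SOT17 did not reach those 4 ranges, while CYP83A1 overlapped that of BCAT4. These ratios share arrays and describe the 4 arrays only.

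ESP, the epithiospecifier protein, directs myrosinase products of aliphatic glucosinolates toward nitriles and epithionitriles, and wild-type Col-0 is known for low ESP expression. Probe set 263174_at had signals of 59.1 and 185 in wild type and of 3103 and 2865 in an3-4. The mutant arrays were close to each other and far above both wild-type arrays, which were far apart from each other. The log2 fold change was 4.84 ± 0.40. Without wild-type replicate 2 the signal was 50.4-fold higher in an3-4 and without wild-type replicate 1 it was 16.2-fold higher, so the wild-type level sets the size of the fold. ESP had the highest log2 fold change of the 13647 probe sets left without the 40% of lowest signal, and the 3rd highest of all 22746.

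**Figure D2:**
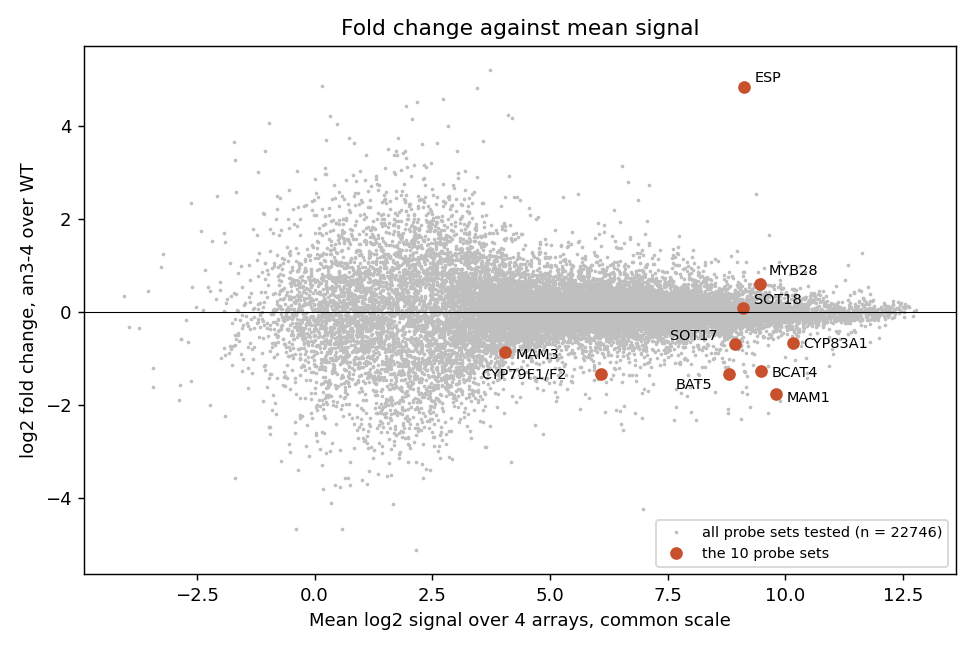
Log2 fold change of an3-4 over wild type against the mean log2 signal over the 4 arrays, for all 22746 probe sets tested (grey) and the 10 members (orange). ESP stands alone at 4.84 among probe sets of its signal level, and MAM1 at -1.76 is near the lower edge at its own level, while MAM3 lies among dim probe sets whose fold changes scatter widely.

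The other genes of glucosinolate metabolism were taken from lists of pathway genes made by their role, with earlier results of these data known. Of the 78 genes listed, the annotation named a probe set for 16, and none of the 7 other chain-elongation genes and none of the 16 indolic genes was among them. In limma 1 of the 16 rose and 1 fell in an3-4, beside 2.66% and 2.51% of all probe sets, and their median log2 fold change was 0.03. The 14 others did not pass.

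Of the regulators, 1 of 3 measured genes rose. SDI2 (AT1G04770), a gene of the sulfur-deficiency-induced family whose products are known to repress glucosinolate synthesis genes, had signals of 88.2 and 91.5 in wild type and of 155 and 156 in an3-4. Its log2 fold change was 0.79 ± 0.12 (limma adjusted p = 0.00528). The call was lost on the deposited scale (limma adjusted p = 0.0713) and with eBayes without the intensity trend (0.213), which gave no call for any probe set. MYC3 and MYC4, basic helix-loop-helix factors that act together with the glucosinolate MYB factors, had log2 fold changes of 0.00 ± 0.11 and -0.16 ± 0.13 and were not called.

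Of the core enzymes, 1 of 3 measured genes fell. GSTU20, a glutathione transferase associated with the conjugation step that follows CYP83A1, had signals of 2849.7 and 2548 in wild type and of 1715 and 1395 in an3-4. Its log2 fold change was -0.80 ± 0.11 (limma adjusted p = 0.00386), and the call was lost only with eBayes without the trend (0.294) among the 15 alternatives run. The glucosyltransferase genes UGT74C1 and UGT74B1, which act between conjugation and sulfation, had log2 fold changes of -0.17 ± 0.08 and 0.00 ± 0.09 and were not called.

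Genes that modify the side chain were not called. GSL-OH, which hydroxylates a finished side chain, had signals from 1146 to 1518 over the 4 arrays and a log2 fold change of 0.09 ± 0.13. AOP1 had -0.08 ± 0.10, and AOP3 was dim on all arrays, from 10.6 to 19.3. AOP2, which together with AOP3 forms the natural variation locus for alkenyl and hydroxyalkyl side chains, and the FMOGS-OX genes were not analysed here.

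The glucosinolate transporter genes GTR1 and GTR2, which load glucosinolates into the phloem, were not called. GTR2 had signals of 116 and 129.5 in wild type and of 149 and 199 in an3-4. Its log2 fold change was 0.49 ± 0.15, with an adjusted p of 0.107 in limma. The gene passed in 5 of the 15 alternatives: without an3-4 replicate 1 (limma adjusted p = 0.0352, log2 fold change 0.70), with the 40% filter (0.0410), with the 60% filter (0.0402), and with the replicate block on the common and on the deposited scale (0.0180 in both). GTR1 had 0.20 ± 0.09 (limma adjusted p = 0.295).

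On the breakdown side none of the 5 measured genes other than ESP was called. PYK10 had a log2 fold change of 0.05 ± 0.10, and the atypical myrosinase gene BGLU28 was dim on all arrays, from 5.57 to 16.6. AT3G07720, a kelch-repeat gene related to the specifier proteins, had -0.26 ± 0.14. AT1G52000, a jacalin-related lectin gene listed with the myrosinase-binding proteins, had 0.45 ± 0.14 (limma adjusted p = 0.119). It passed with the 60% filter (limma adjusted p = 0.0494), and its log2 fold change was 0.64 when wild-type replicate 1 was left out. AT1G54020, listed with the relatives of ESM1, was dim on all arrays, from 1.89 to 17.0. The myrosinases TGG1 and TGG2 and the nitrile-specifier genes NSP1 to NSP5 were not analysed here.

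Methionine, the precursor of the pathway, has uses beyond glucosinolates. The genes MMT, HMT-1, MGL and SAMDC of methionine and S-adenosylmethionine metabolism were listed after their values were seen and got no test. Their log2 fold changes were 0.11 ± 0.08, 0.05 ± 0.12, -0.12 ± 0.35 and -0.04 ± 0.09. MGL was dim on both wild-type arrays (33.2 and 33.1) and on an3-4 replicate 1 (22.9), so its value is not a measured difference.

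**Figure D3:**
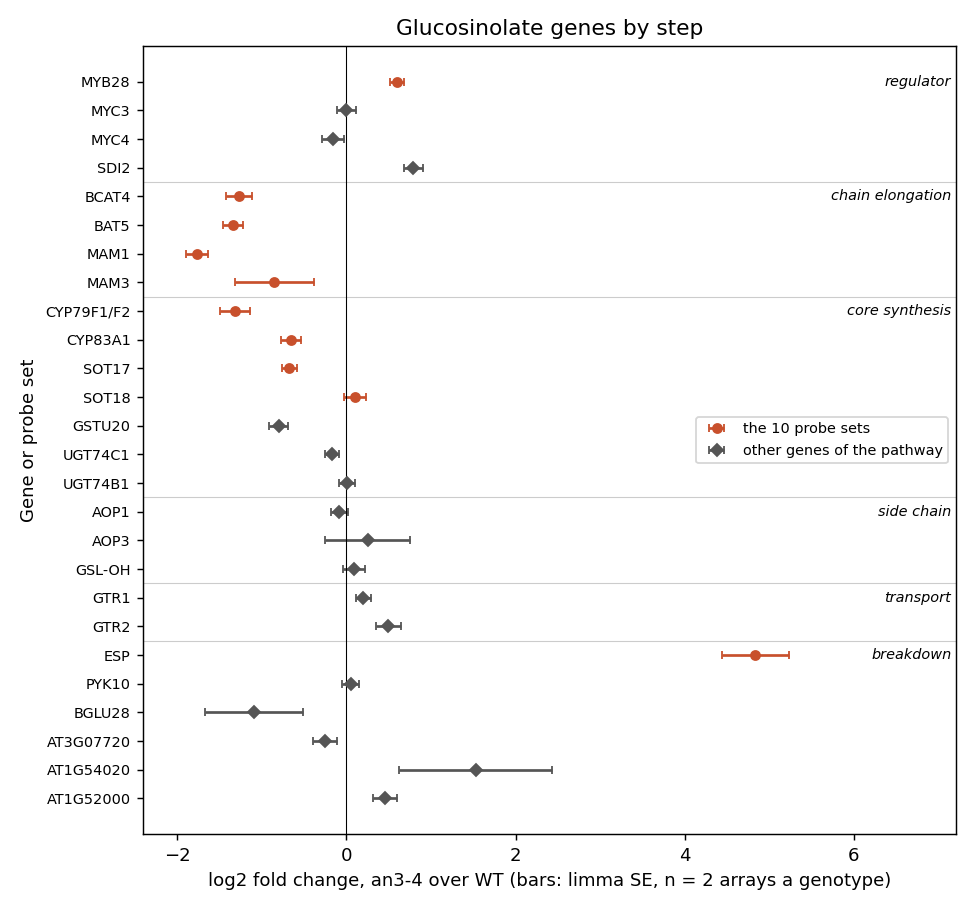
Log2 fold change of an3-4 over wild type with its limma SE (n = 2 arrays a genotype) for the 10 members (circles) and the 16 other glucosinolate genes measured (diamonds), ordered by step. The members of chain elongation, CYP79F1/F2, CYP83A1, SOT17 and GSTU20 lie below 0, and MYB28, SDI2 and ESP lie above 0. Of the genes not called, GTR1, GTR2 and AT1G52000 lie above 0, and MYC4, UGT74C1 and AT3G07720 lie below 0. Apart from the dim AOP3, the genes of side-chain modification lie near 0. MAM3, AOP3, BGLU28 and AT1G54020 were dim on all 4 arrays, so their positions are not measured differences.

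Position along the chromosome was not used to choose the members. The 5 nearest measured genes on each side of the 9 member loci, with MAM1 and MAM3 taken as 1 locus, gave 90 genes, up to 25 places away in the RefSeq gene order of TAIR10.1. In limma 3 of them fell and 0 rose, beside 2.51% and 2.66% of all probe sets, and their median log2 fold change was 0.02. The count of 3 became 1 without wild-type replicate 2.

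Among the 10 measured neighbours of ESP none had a log2 fold change near 4.84, but only 4 of them passed the filter that leaves out the 40% of lowest signal. The next gene, AT1G54050, which encodes a small heat shock protein, had signals of 93.7 and 107 in wild type and of 33.8 and 46.2 in an3-4. It fell by 1.34 on the log2 scale (SE 0.21, limma adjusted p = 0.00725), with 1 mutant signal below the 40th percentile of its array, and lost the call without wild-type replicate 2 (log2 fold change -1.24, limma adjusted p = 0.0566). ALDH7B4, an aldehyde dehydrogenase gene 7 places away, had a log2 fold change of 0.06 ± 0.09. AT1G54120, 10 places away, was higher on both mutant arrays, with signals of 23.4 and 19.4 in wild type, both dim, and of 41.8 and 47.5 in an3-4. The log2 fold change of 1.06 ± 0.31 was not called (limma adjusted p = 0.0907). Of the 10 neighbours of ESP, 7 were above 0 and 3 below, and none but AT1G54050 was called.

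The other neighbours called in limma were AT1G16560, 21 places from CYP79F1/F2, and AT4G12060, 6 places from BAT5. AT1G16560 had signals of 219.9 and 208 in wild type and of 98.5 and 91.8 in an3-4, and its log2 fold change was -1.17 ± 0.11 (adjusted p = 5.12e-04 in limma). AT4G12060 had -0.45 ± 0.09 (limma adjusted p = 0.0245), which did not pass on the deposited scale (0.413), with the offset of 32 (0.0775) or when an3-4 replicate 2 (0.124) or either wild-type replicate (0.0709 without the array numbered 1, 0.0911 without the array numbered 2) was left out. No neighbour of MYB28, BCAT4, CYP83A1, SOT17, SOT18 or the MAM genes was called. AT4G13780, the gene after CYP83A1, was near the threshold with -0.33 ± 0.08 (limma adjusted p = 0.0510). It passed with median centring (limma adjusted p = 0.0475), where 4 neighbours were called.

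**Figure D4:**
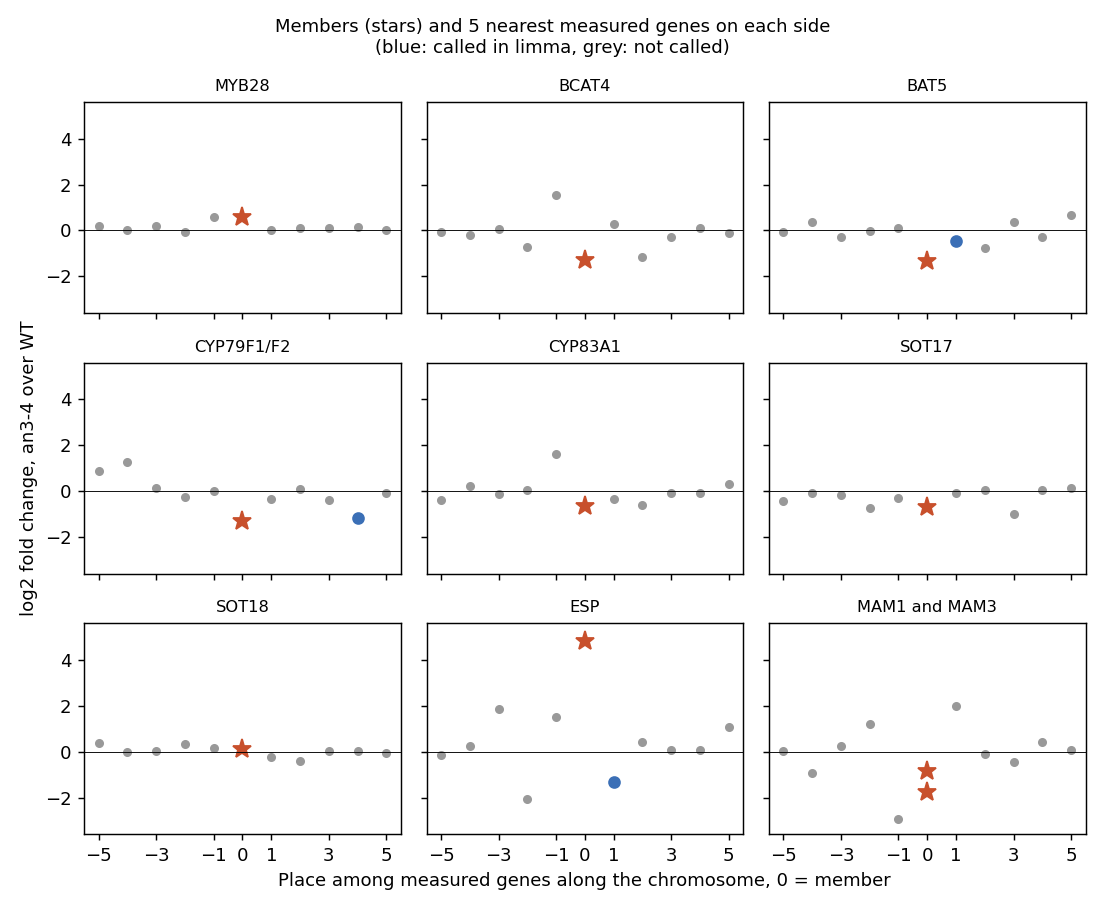
Log2 fold change of an3-4 over wild type for each member (star at 0) and the 5 nearest measured genes on each side, by place among the measured genes of the chromosome, in 9 panels. The 3 genes called in limma are blue and lie beside BAT5, CYP79F1/F2 and ESP, and no neighbour of ESP lies near its value of 4.84.

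The genes whose signals over the 4 arrays were most like those of MYB28 and ESP were found by the root mean square distance between log2 signals centred on each probe set's own mean. For MYB28 the 5 nearest named genes were AT4G19390, AT5G44050, AT2G35880, PRA1.F1 and EXPA8, at distances from 0.01 to 0.02 and with log2 fold changes from 0.57 to 0.60. EXPA8, an expansin gene, had signals of 719 and 697 in wild type and of 1097 and 1023 in an3-4. For ESP the nearest were AT2G10370, AT1G43660, AT5G24240, AT4G03156 and AT5G34920, at distances from 0.21 to 0.49. All 5 lay below the 40th percentile on both wild-type arrays, with signals there from 0.144 to 5.77, so none matched ESP in a range of measured signal. With 4 arrays, likeness rests on the difference between genotypes and on 1 replicate difference in each.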

How the data were processed

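The authors deposited a linear signal intensity for each probe set, made with MAS5 per the submitters' processing notes. Its version and target are not given in the sources used here, and the table holds 22810 probe sets, 64 of them controls. Each array was brought to the geometric mean of the 4 trimmed means (2% off each end). Log2 signals of all probe sets that are not controls, without a signal filter, were fitted in limma 3.58.1 (R 4.3.3; lmFit, eBayes with intensity trend, genotype only, 2 residual degrees of freedom), with Benjamini-Hochberg adjustment over all 22746 and calls at 0.05. With 2 arrays a genotype, the smallest p of an exact permutation test is 0.333. Arrays carry no counting depth, so their number limits the precision.

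Genes were named from the platform annotation, with 1 gene for 13513 probe sets (13436 matched to RefSeq TAIR10.1), several for 503 and none for 8730. A gene was represented by its brightest probe set. The members and lists were chosen with earlier results of these data known. Named genes were the members, each list's called genes or else the 2 of smallest p, and other list genes by value. Called neighbours and the 5 genes most like MYB28 and ESP were also named. The neighbours ALDH7B4, AT1G54120 and AT4G13780 were not called and were named outside this rule with their values known. They are not a full account of the uncalled neighbours. Over all probe sets on the common scale, the deviations of same-numbered arrays correlated at -0.01, and at 0.04 without the 40% of lowest signal. The arrays were therefore not treated as pairs. MYB28, BCAT4, BAT5, MAM1, MAM3, CYP83A1, SOT17 and SOT18 were higher on array 1 than on array 2 in both genotypes, unlike CYP79F1/F2 and ESP. Whether the array numbers carry a shift shared by such genes was not tested. The planned comparison of sequences was not run. On simulated data over 22746 probe sets for this comparison, the fit recovered 54.9% of log2 changes of 1 and 68.8% of changes of 2. The simulated noise was normal and independent, with an SD set by mean signal alone. Real probe sets also differ in spread at equal signal, so these shares may not hold for the data. Alternatives were other scales, filters, an offset of 32, other variance models, the replicate block, each array left out, another threshold and another choice of probe set. Each measured gene of the pathway lists had only 1 probe set, so the last alternative could not change their calls.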

Additional observations from a re-analysis of the deposited data

How the results depend on the processing

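The median log2 fold change of the members, -0.76 with the dim MAM3 included, kept its sign in the other scales and with the offset, and it ran from -0.98 to -0.58 with 1 array left out. Of the 10 members, SOT18 alone changed sign. The others, the dim MAM3 included, did not overlap between the genotypes, so leaving out 1 array could not change their sign. Their kept signs are thus no test of them. The counts of probe sets higher and lower, 604 and 570, became 264 and 276 on the deposited scale, 295 and 300.0 with the offset of 32, 967 and 859 with the replicate block, and 972 and 854 at an adjusted p under 0.1. They were 896 and 789 with the 40% filter. Without the intensity trend limma called 0 and 0, with 2810 at an unadjusted p under 0.05, and 0 of the 16 listed pathway genes, of which 3 had an unadjusted p under 0.05. With any single array left out there were 286 to 514 probe sets higher, 333 to 407 lower, 2 to 3 pathway genes and 1 to 3 neighbours called, on the assumption that the lone array varies as the other genotype does. The 2 pathway genes became 1 on the deposited scale, where same-numbered arrays carry their own scale, 4 with the 60% filter and 3 with the replicate block, on the common scale and on the deposited scale. The block on the deposited scale was chosen after the data were examined. Same-numbered arrays share a deposited scale, but the labels name no batch behind the numbers. Over all probe sets on the common scale their deviations did not correlate (-0.01), so the block was not taken as the main result. Most members were nonetheless higher on array 1 than on array 2 in both genotypes. GTR2 was the pathway gene gained with the block (adjusted p = 0.0180 in limma). Of 233 values of single pathway genes under the alternatives, 223 stayed on their side of the threshold. Many of these genes were far from the threshold in every setting, so this share does not measure how stable the 2 calls were. The causes of these shifts were not tested. Dim probe sets such as MAM3, AOP3, BGLU28 and AT1G54020 limit what can be read of their genes.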
